A study of Drosophila melanogaster with 80 samples.

Results

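A group of 7 genes of Drosophila blood cells, the hemocytes, was followed through 3 generations of flies fed sugar-rich or control food. PPO1 and PPO2 encode prophenoloxidases, eater, NimC1 and NimC4 encode receptors with Nimrod-type repeats, Sr-CI encodes a class C scavenger receptor, and Hml encodes hemolectin. A gene was taken where a probe set carried its symbol and no other, and the brightest such probe set over all arrays was used. All 7 genes had 1 such probe set each, out of 11982 genes with a named probe set.

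Hemocytes patrol the body cavity of the fly. Plasmatocytes, the macrophage-like cells, engulf bacteria and dying cells through surface receptors, and crystal cells store prophenoloxidases, which on activation start the chemistry that deposits melanin at wounds and around parasites. In adult flies many hemocytes sit attached to tissues, along the heart and the fat body among others. These cells are a small part of a whole fly, so a whole-fly value sums their number and the RNA in each of them.

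Oregon R is a laboratory wild-type strain. Its 3 to 4 day old virgin females or unmated males were kept at 30 per vial and 25 °C for 14 days on food with 0.15 M sucrose, the control diet (CD), or with 1 M sucrose, the high-sucrose diet (HSD). Whole flies were hybridised to Affymetrix Drosophila Genome 2.0 arrays, 4 per group. The 4 F0 groups were males and females on either diet. The 8 F1 and 8 F2 groups combined sex, the flies' own diet and the diet of the F0 males from which they came. Below, CD ancestry and HSD ancestry name the diet of those F0 males, and own diet names the food of the flies that were measured. The labels do not tell separate vials from repeat samples of 1 vial among the 4 arrays, so p-values measure the spread between these arrays, which may be technical, and they do not give the food of the F1 parents of the F2 flies.

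Values are log2 signals, n = 4 arrays per group. The array medians ran from 5.16 to 7.34, because the 80 arrays had been normalized in 10 separate sets of 8. Each set held both ancestries of 1 generation, sex and own diet, or both diets of 1 sex in F0, so these comparisons lie within a set. Some arrays, 6 in all, held raised levels of transcripts limited to the other sex. These were replicates 1 and 4 of F1 CD-fed males of HSD ancestry, replicate 1 of F1 HSD-fed females of HSD ancestry, and replicates 1, 2 and 4 of F2 HSD-fed males of HSD ancestry. For named changes that passed and include them, the values without them are given alongside. For other results, levels among them, they are given only in part. Smaller rises were left in, among them replicate 3 of F2 HSD-fed males of HSD ancestry (0.38) and replicate 1 of F1 HSD-fed females of CD ancestry (0.38). In F1 HSD-fed males replicate 4 of CD ancestry (0.39) and replicate 4 of HSD ancestry (0.34) also stood above the lowest array of the set. All 7 hemocyte genes passed the filter on dim genes in every comparison, which is not a test of detection. On any array their probe sets lay between the 37.6th and the 95.1st percentile of all probe sets, named or not. The lowest places were those of NimC4 (37.6th) and eater (37.8th).

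In F1 females that ate HSD, 6 of the 7 hemocyte genes fell when the F0 males had also eaten HSD. NimC4 fell most, by 0.99 on the log2 scale, and PPO1, PPO2, eater, NimC1 and Hml by 0.35 to 0.56. Over all genes tested in this comparison, 4.07% passed at an adjusted p under 0.05 and 1.08% passed as lower. The median change of the 7 genes was -0.46, against 0.00 over all genes. Fewer hemocytes and less RNA per hemocyte cannot be told apart in such extracts.

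NimC4, also called Simu, is a receptor through which glia and macrophages take up dying cells. Its log2 signal was 8.56, 8.69, 8.34 and 8.82 in the 4 arrays of CD ancestry and 7.32, 7.66, 7.67 and 7.80 in the 4 of HSD ancestry. The groups did not overlap, and the lowest array was the one that also held male transcripts. The change was -0.99 (SE 0.12, limma adjusted p = 0.00707). The phagocytic receptor eater, which in larvae also holds hemocytes to their attachment sites, gave 8.80, 8.88, 8.64 and 8.80 with CD ancestry and 8.19, 8.27, 8.34 and 8.48 with HSD ancestry. All 4 arrays of HSD ancestry were lower, with a change of -0.46 (SE 0.07, limma adjusted p = 0.0119). NimC1, the P1 antigen by which plasmatocytes are commonly recognised, stood at 9.58, 9.58, 9.43 and 9.62 against 8.92, 9.10, 9.20 and 9.28. Here too the groups were apart, by -0.43 on average (SE 0.08, limma adjusted p = 0.0230).

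PPO1 was even across CD ancestry, at 10.62, 10.61, 10.55 and 10.54, and spread further with HSD ancestry, at 9.84, 9.82, 10.10 and 10.31. PPO2, the enzyme that forms the crystals of crystal cells, gave 10.60, 10.68, 10.58 and 10.66 against 9.92, 9.93, 10.21 and 10.39. Replicates 1 and 2 of HSD ancestry were the lowest for both enzymes. The changes were -0.56 for PPO1 (SE 0.10, limma adjusted p = 0.0232) and -0.52 for PPO2 (SE 0.10, limma adjusted p = 0.0283). Hml, a large secreted clotting protein, gave 7.69, 7.75, 7.62 and 7.80 with CD ancestry and 7.39, 7.26, 7.35 and 7.44 with HSD ancestry. Its groups were apart by -0.35 (SE 0.05, limma adjusted p = 0.0119). Sr-CI, a receptor for bacterial surfaces, also had separate groups, at 8.81, 8.82, 8.69 and 8.74 against 8.55, 8.42, 8.50 and 8.66. Its change of -0.23 (SE 0.05) missed the threshold (limma adjusted p = 0.0509). A complete separation downwards, as in these 7 genes, was found for 4.63% of the genes tested.

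Some other genes of hemocytes and of the matrix they secrete fell in these females as well. Of 8 hemocyte surface and matrix genes 4 fell, and the median of the list was -0.27 against 0.00 over all genes. Among them were Ppn, a matrix proteoglycan-like protein (-0.45, limma adjusted p = 0.00650), and the collagen IV chains Col4a1 (-0.34, limma adjusted p = 0.0112) and vkg (-0.33, limma adjusted p = 0.0135). Of 13 other Nimrod and scavenger receptors 1 fell, the secreted NimB5 (-0.29), and of 8 blood cell transcription factors and growth signals 1 fell, Pvf2 (-0.58), a ligand of the hemocyte receptor Pvr. The plasmatocyte markers crq and srp and the crystal cell factor lz, which belong to these lists, were not called. Pxn and He, also plasmatocyte markers, belong to the surface and matrix list, of which only the 3 genes with the smallest adjusted p are named. The thioester protein Tep3 rose by 0.17. Without the array holding male transcripts Ppn, Col4a1, vkg and NimB5 still passed, and Pvf2 (-0.59, limma adjusted p = 0.0849) and Tep3 (0.17, limma adjusted p = 0.0689) did not. None of the 8 melanization proteases and serpins, 6 melanin synthesis enzymes or 3 lamellocyte genes passed the test, which 4.07% of all genes passed.

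None of the 4 fat body, 4 nephrocyte and heart, 4 muscle or 6 ovary and yolk markers passed, with list medians of 0.06, 0.01, 0.11 and -0.05. As 4.07% of all genes passed, the lack of calls in such short lists does not set these markers apart. None of the 4 testis and accessory gland markers passed either, at a median change of 0.39, and the mean level of the list ran from 4.47 to 5.71 over the arrays of CD ancestry and from 4.54 to 6.49 over those of HSD ancestry. Without the array holding male transcripts NimC4 (-0.89), eater (-0.42), Hml (-0.36) and NimC1 (-0.36) still passed. PPO1 (-0.50, limma adjusted p = 0.0548), PPO2 (-0.45, limma adjusted p = 0.0622) and Sr-CI (-0.24, limma adjusted p = 0.0967) did not. The count of 6 rested on several arrays: it ran from 3 to 7 over the 8 fits that left out 1 array. It was 3 without replicate 1, 2 or 4 of CD ancestry or without replicate 3 of HSD ancestry. NimC4, eater and Hml passed in all 8 fits that left out 1 array, NimC1 in 3, PPO1 in 2, and PPO2 and Sr-CI in 1. None of those fits turned a direction.

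**Figure D1:**
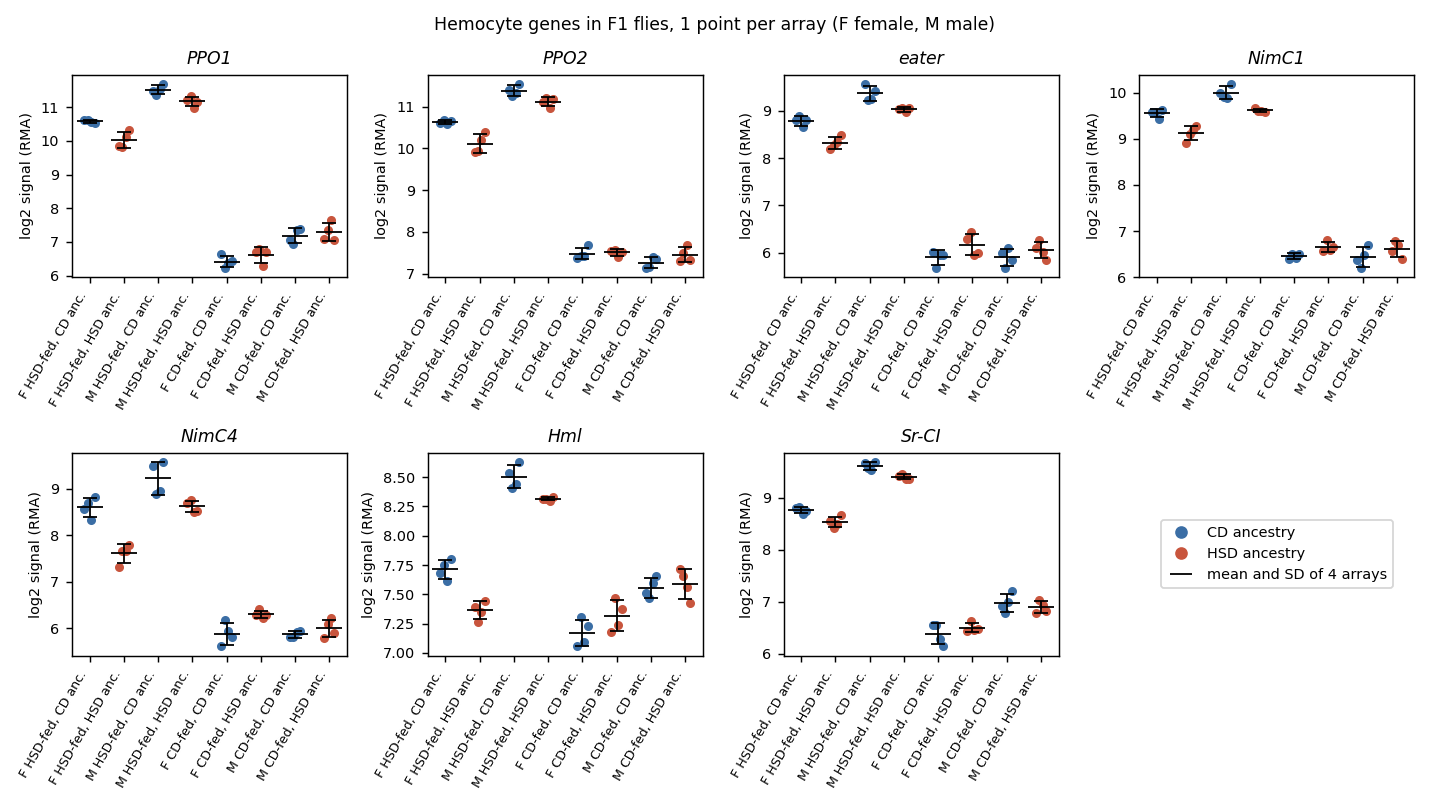
Log2 signal (y axis) of each gene in the 8 F1 groups (x axis), 1 point per array, with the mean and SD of 4 arrays; F and M stand for female and male and anc. for ancestry. In HSD-fed females the 4 arrays of HSD ancestry lie below the 4 of CD ancestry for all 7 genes, as they do in HSD-fed males, while the CD-fed groups overlap for most genes.

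F1 males on HSD showed lower values of all 7 genes with HSD ancestry, but none passed after adjustment over all genes. The changes were -0.60 for NimC4, -0.38 for NimC1, -0.35 for PPO1, -0.34 for eater, -0.26 for PPO2, -0.21 for Sr-CI and -0.19 for Hml. Each had an unadjusted limma p under 0.05, as did 11.7% of all genes in either direction and 5.89% as lower. The adjusted p-values lay between 0.119 and 0.209. Limma passed 0% of the 10941 genes in this comparison, with 0.114 as its smallest adjusted p, so the sizes are given without a call.

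For each of the 7 genes all 4 arrays of HSD ancestry lay below all 4 of CD ancestry, which 3.82% of the genes tested showed. NimC4 read 9.48, 8.88, 8.96 and 9.57 against 8.70, 8.75, 8.51 and 8.53, so the CD ancestry arrays were widely spread (SD 0.35) and the gap between the groups was small. NimC1 read between 9.88 and 10.19 in the 4 arrays of CD ancestry, against 9.67, 9.61, 9.60 and 9.58, a tight group (SD 0.04). For eater the values were 9.57, 9.22, 9.25 and 9.42 against 9.03, 9.05, 8.96 and 9.06. Hml showed the smallest change with the tightest group, at 8.54, 8.41, 8.44 and 8.63 against 8.31, 8.31, 8.30 and 8.33. The prophenoloxidases were apart by the narrowest gaps. PPO1 read 11.49, 11.37, 11.54 and 11.70 against 11.21, 11.34, 10.99 and 11.15, and PPO2 11.39, 11.25, 11.33 and 11.54 against 11.11, 11.21, 10.97 and 11.18. Sr-CI read 9.67, 9.58, 9.52 and 9.68 against 9.41, 9.46, 9.36 and 9.36, with its spread smaller than its change in both groups. All 8 hemocyte surface and matrix genes had changes below 0, as did 48.3% of all genes, with a list median of -0.22 against 0.00 over all genes. Muscle markers had a median of 0.06 and fat body markers of -0.10. As limma passed no gene in this comparison, the lack of calls in any list tells nothing about it.

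In F1 flies that ate CD, limma called no hemocyte gene in either sex, against 4.51% of all genes in males and 2.64% in females. At an unadjusted p under 0.05 there were 0 of the 7 genes in males, against 24.8% of all genes, and 3 in females (NimC4, NimC1 and eater), against 18.3%. In CD-fed females none of the 7 changes was below 0, while 43.2% of all genes had a change below 0, and the median of the 7 was 0.20. NimC4 gave 5.61, 6.18, 5.94 and 5.82 with CD ancestry and 6.29, 6.41, 6.22 and 6.28 with HSD ancestry. These groups did not overlap, and the change of 0.41 (SE 0.10) had a limma adjusted p of 0.0678. NimC1 was also fully separated upwards (0.20), as were 7.98% of all genes, and eater (0.27) and PPO1 (0.20) overlapped. In CD-fed males the changes ran from -0.08 for Sr-CI to 0.19 for PPO2, and 6 of 7 were above 0. Replicates 1 and 4 of the CD-fed males of HSD ancestry, which held female transcripts, read 7.10 and 7.06 for PPO1 against 7.34 and 7.64 in the other 2 arrays. Without them none of the 7 genes passed either, and the changes ran from 0.01 for Sr-CI to 0.32 for PPO2. Of the surface and matrix genes SPARC, a collagen-binding matrix protein, rose in these males (0.27, limma adjusted p = 0.0400), as did the muscle gene Act88F (0.32), whose part was not tested. Without replicates 1 and 4 of HSD ancestry neither passed, at 0.18 for SPARC (limma adjusted p = 0.321) and 0.25 for Act88F (limma adjusted p = 0.297).

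The ancestry change differed between HSD-fed and CD-fed F1 flies for 6 of these genes in females and for 3 in males, and the sexes were not tested against each other. In females the change in HSD-fed flies minus that in CD-fed flies passed for 6 of the 7 genes, against 2.83% of all genes in either direction and 2.11% as lower. NimC4 differed by -1.40 (SE 0.17, limma adjusted p = 5.43e-04), NimC1 by -0.63 (SE 0.10, limma adjusted p = 0.00396), and Hml by -0.50 (SE 0.10, limma adjusted p = 0.0119). PPO1 (-0.76), eater (-0.73) and PPO2 (-0.54) followed with adjusted p-values of 0.0247, 0.0122 and 0.0327, and Sr-CI (-0.35, limma adjusted p = 0.129) did not pass. NimC4, NimC1, eater and Hml passed whichever of the 16 arrays was left out, PPO1 in 11 and PPO2 in 6 of those 16 fits. Without the array holding male transcripts these 4 passed, while PPO1 (-0.70, limma adjusted p = 0.0507) and PPO2 (-0.48, limma adjusted p = 0.0650) did not. Own diet in F1 equals the labelled batch, so the 2 changes compared come from different batches, and a difference between diets and one between batches cannot be told apart.

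In F1 males 3 of the 7 genes passed the same test, against 3.75% of all genes in either direction and 2.79% as lower. NimC4 differed by -0.73 (SE 0.18, limma adjusted p = 0.0386), NimC1 by -0.55 (SE 0.14, limma adjusted p = 0.0358) and PPO2 by -0.45 (SE 0.12, limma adjusted p = 0.0490). The difference of eater was -0.49 (limma adjusted p = 0.0541), and those of PPO1, Hml and Sr-CI were -0.45, -0.22 and -0.13. These male calls lay close to the threshold. Without the 2 arrays holding female transcripts the same 3 genes passed, NimC4 at -0.88 (limma adjusted p = 0.0464), NimC1 at -0.68 (limma adjusted p = 0.0267) and PPO2 at -0.59 (limma adjusted p = 0.0299). None of the 7 genes passed without replicate 1 of CD-fed males of CD ancestry, without replicate 2 of CD-fed males of HSD ancestry, without replicate 1 or 4 of HSD-fed males of CD ancestry, or without replicate 1, 3 or 4 of HSD-fed males of HSD ancestry. One passed without replicate 3 of CD-fed males of HSD ancestry or replicate 2 of HSD-fed males of HSD ancestry.

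**Figure D2:**
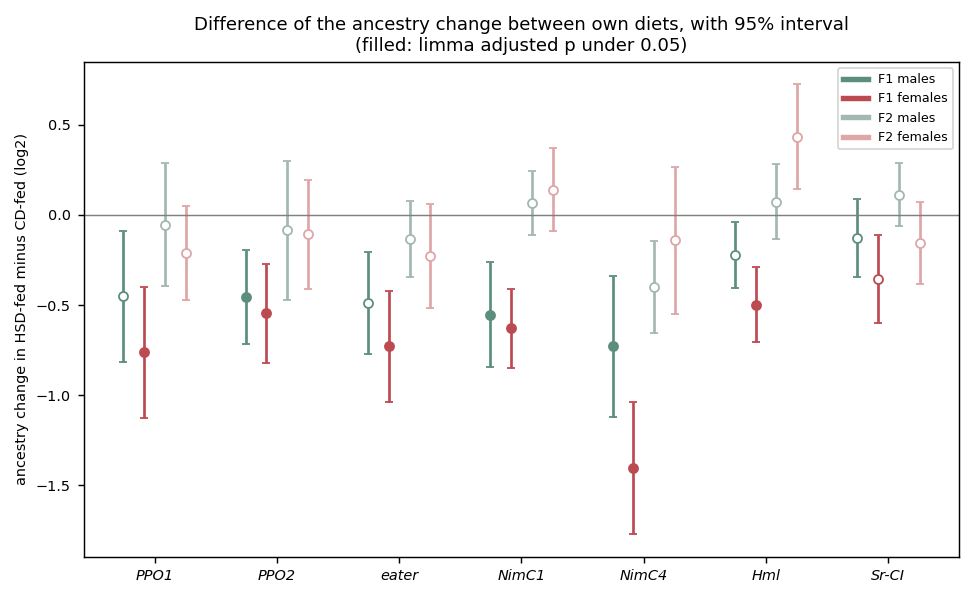
For each gene (x axis), the ancestry change in HSD-fed flies minus that in CD-fed flies (y axis, log2 units) with its 95% interval, by generation and sex; filled points had a limma adjusted p under 0.05. F1 females and F1 males lie below 0 for all 7 genes, and no F2 point is filled.

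Averaged over both own diets, the ancestry change passed for PPO2 in F1 females, at -0.24 (SE 0.06, limma adjusted p = 0.0316), where 7.33% of all genes passed. PPO2 changed by 0.03 in CD-fed and by -0.52 in HSD-fed females, so the average describes neither diet by itself. Without the array holding male transcripts the average did not pass (-0.21, limma adjusted p = 0.0627). The call was lost without replicate 1, 2 or 4 of HSD-fed females of CD ancestry, replicate 1 or 2 of HSD-fed females of HSD ancestry, replicate 4 of CD-fed females of CD ancestry or replicate 3 of CD-fed females of HSD ancestry, and 2 genes passed without replicate 1 of CD-fed females or replicate 3 of HSD-fed females of CD ancestry. No hemocyte gene passed limma in F1 males averaged over own diets, against 5.06% of all genes, and 2 (NimC4 and Sr-CI) had an unadjusted p under 0.05, against 22.6%. Of 10 blood cell transcription factors and growth signals 3 fell there: lz (-0.24, limma adjusted p = 0.00264), the Runx factor of crystal cells, zfh1 (-0.24) and the Friend of GATA factor ush (-0.24). Of the surface and matrix genes He fell (-0.23), and of the other receptors NimB1 (-0.16). The muscle gene TpnC4 rose in the same males, by 0.29, and its part in these values was not tested. Without the 2 arrays holding female transcripts lz (-0.23) and TpnC4 (0.26) still passed, while zfh1 (-0.23, limma adjusted p = 0.0728), ush (-0.20, limma adjusted p = 0.0833), He (-0.19, limma adjusted p = 0.160) and NimB1 (-0.17, limma adjusted p = 0.104) did not.

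**Figure D3:**
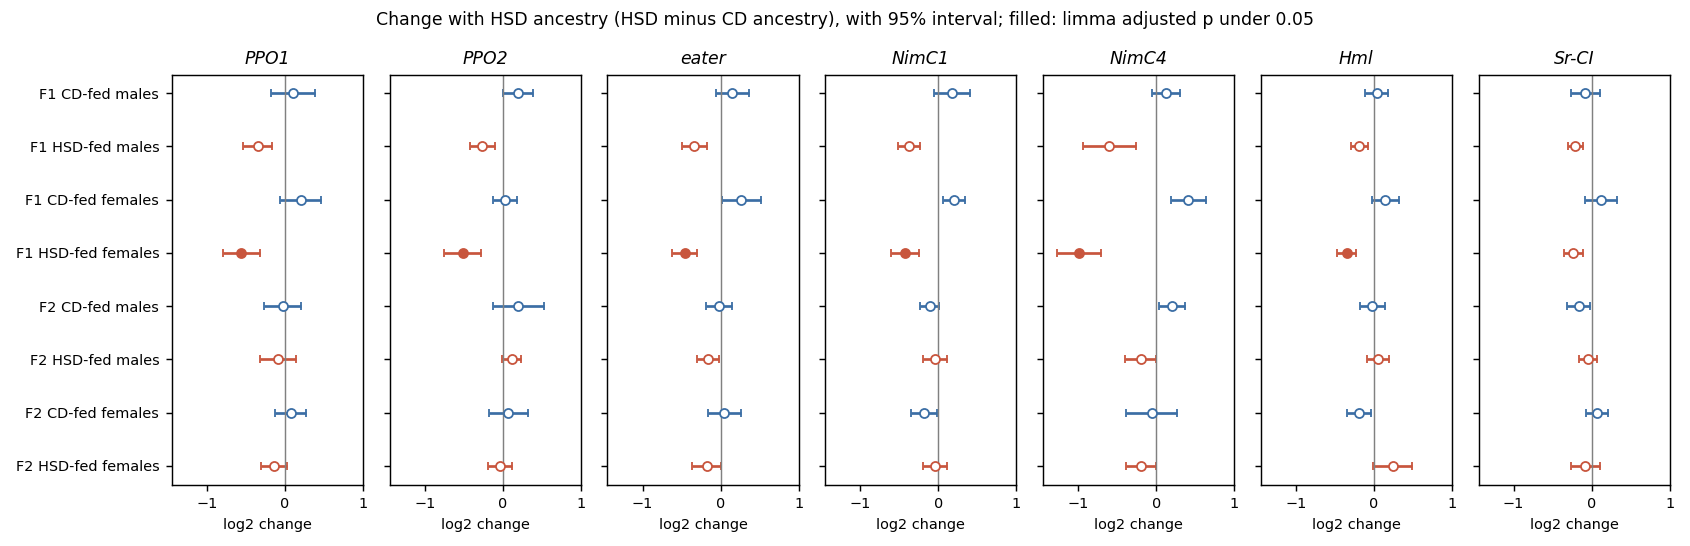
Change with HSD ancestry (x axis, log2 units, HSD minus CD ancestry) with its 95% interval for each gene in the 8 sets of F1 and F2 flies; filled points had a limma adjusted p under 0.05. In all, 6 genes pass in F1 HSD-fed females, the interval of NimC4 there lies furthest below 0, and no gene passes in F2.

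In F2 flies limma called no hemocyte gene in any of the 4 sets, nor in the averaged changes, nor in the differences between own diets. The share of all genes passing was 2.98% in CD-fed males, 0.201% in HSD-fed males, 1.29% in CD-fed females and 0.79% in HSD-fed females. At an unadjusted limma p under 0.05 there were 2 of the 7 genes in CD-fed males (NimC4 and Sr-CI), against 21.5% of all genes, and 1 in HSD-fed males (eater), against 7.31%. In CD-fed females there were 2 (NimC1 and Hml), against 21.7%, and in HSD-fed females 1 (NimC4), against 17.9%. For the averaged changes 1.14% of all genes passed in males and 9.72% in females, and 18.9% and 28.9% had an unadjusted p under 0.05, with Sr-CI in males and none of the 7 in females. For the differences between own diets 0.917% and 0.167% passed, and 13.3% and 10.5% had an unadjusted p under 0.05, with NimC4 in males (-0.40, limma adjusted p = 0.148) and Hml in females (0.43, limma adjusted p = 0.244). The male difference of NimC4 includes the 3 arrays with female transcripts. Without them the NimC4 change in HSD-fed males was 0.04 in place of -0.20.

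The F2 changes were small and mixed in sign. NimC4, the gene with the widest F1 change, gave 0.20 in CD-fed males, -0.20 in HSD-fed males, -0.06 in CD-fed females and -0.20 in HSD-fed females. In HSD-fed females its arrays read 7.32, 6.95, 6.98 and 6.97 with CD ancestry and 6.74, 6.98, 6.86 and 6.86 with HSD ancestry, so the groups overlapped. The 95% interval of that change, -0.39 to -0.0005, does not reach the -0.99 of F1. NimC1 in CD-fed males read 7.72, 7.66, 7.71 and 7.76 with CD ancestry and 7.59, 7.57, 7.63 and 7.60 with HSD ancestry, a change of -0.11, and 4.09% of all genes were fully separated downwards in that set. For eater in HSD-fed males the values were 8.38, 8.42, 8.39 and 8.51 against 8.36, 8.14, 8.28 and 8.28, a change of -0.16, where 2.17% were separated in this way. Neither gene passed. For PPO1 in HSD-fed females the interval was -0.31 to 0.03, and for PPO2 -0.19 to 0.12. In F2 HSD-fed males the 3 arrays with female transcripts made up most of the HSD ancestry group. Without them the changes of NimC4, NimC1 and eater were 0.04, 0.03 and -0.14 in place of -0.20, -0.05 and -0.16. The yolk protein genes Yp1, Yp2 and Yp3 were 1.48 to 1.78 higher in that group, and 0.95 to 1.22 higher in its remaining array. That array, replicate 3, itself had female transcripts 0.38 above the lowest array of the set. Those fits with 1 array of HSD ancestry take it to vary like the arrays of CD ancestry.

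In F0 flies, whose own diet lies within a labelled batch, HSD changed some of these genes. In females Hml and PPO1 rose and eater and Sr-CI fell, and in males NimC1 rose. The counts were 4 of 7 in females, where 41.3% of all genes passed, 23.1% higher and 18.2% lower, and 1 of 7 in males, where 30.5% passed, 19.5% higher. With so many genes passing, neither count sets the hemocyte genes apart.

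Hml in F0 females read 7.40, 7.25, 7.27 and 7.51 on CD and 8.09, 8.11, 7.89 and 7.80 on HSD. All 4 HSD arrays were higher, by 0.62 on average (SE 0.08, limma adjusted p = 4.23e-04). The receptor eater went the other way, from 5.81, 5.92, 5.82 and 5.81 on CD to between 5.36 and 5.59 in the 4 HSD arrays. Its groups were apart by -0.39 (SE 0.06, limma adjusted p = 5.87e-04). PPO1 rose by 0.16 (limma adjusted p = 0.0293), with separate groups too, as in 41.4% of all genes in either direction, and Sr-CI fell by 0.26 on the log2 scale (limma adjusted p = 0.0245), with overlapping ones. Only Hml and eater passed whichever of the 8 arrays was left out. The count was 2 without replicate 2 on CD or without replicate 2 or 3 on HSD.

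In F0 males NimC1 read 7.65, 7.48, 7.71 and 7.72 on CD and 7.81, 7.98, 7.81 and 7.81 on HSD, a rise of 0.21 (SE 0.06, limma adjusted p = 0.0318). It passed in 5 of the 8 fits that left out 1 array and did not pass without replicate 1 or 2 on CD (adjusted p = 0.0577 and 0.0691) or replicate 2 on HSD (0.0819), where PPO1 passed in its place (-0.21, limma adjusted p = 0.0494). Without replicate 1 on HSD both NimC1 and NimC4 passed. NimC4 had one low HSD array, 5.11 beside 5.58, 5.49 and 5.97, against 5.22, 5.07, 5.11 and 5.13 on CD, and its change of 0.40 (SE 0.14) did not pass (limma adjusted p = 0.0604). PPO2, eater, Hml, PPO1 and Sr-CI changed by -0.15 to 0.18, none past the threshold. The difference between the sexes, female minus male change, passed for eater (-0.45, limma adjusted p = 0.00304), Hml (0.44, limma adjusted p = 0.0165) and PPO1 (0.31, limma adjusted p = 0.0184), where 30.3% of all genes passed. These 3 differences passed whichever of the 16 arrays was left out.

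**Figure D4:**
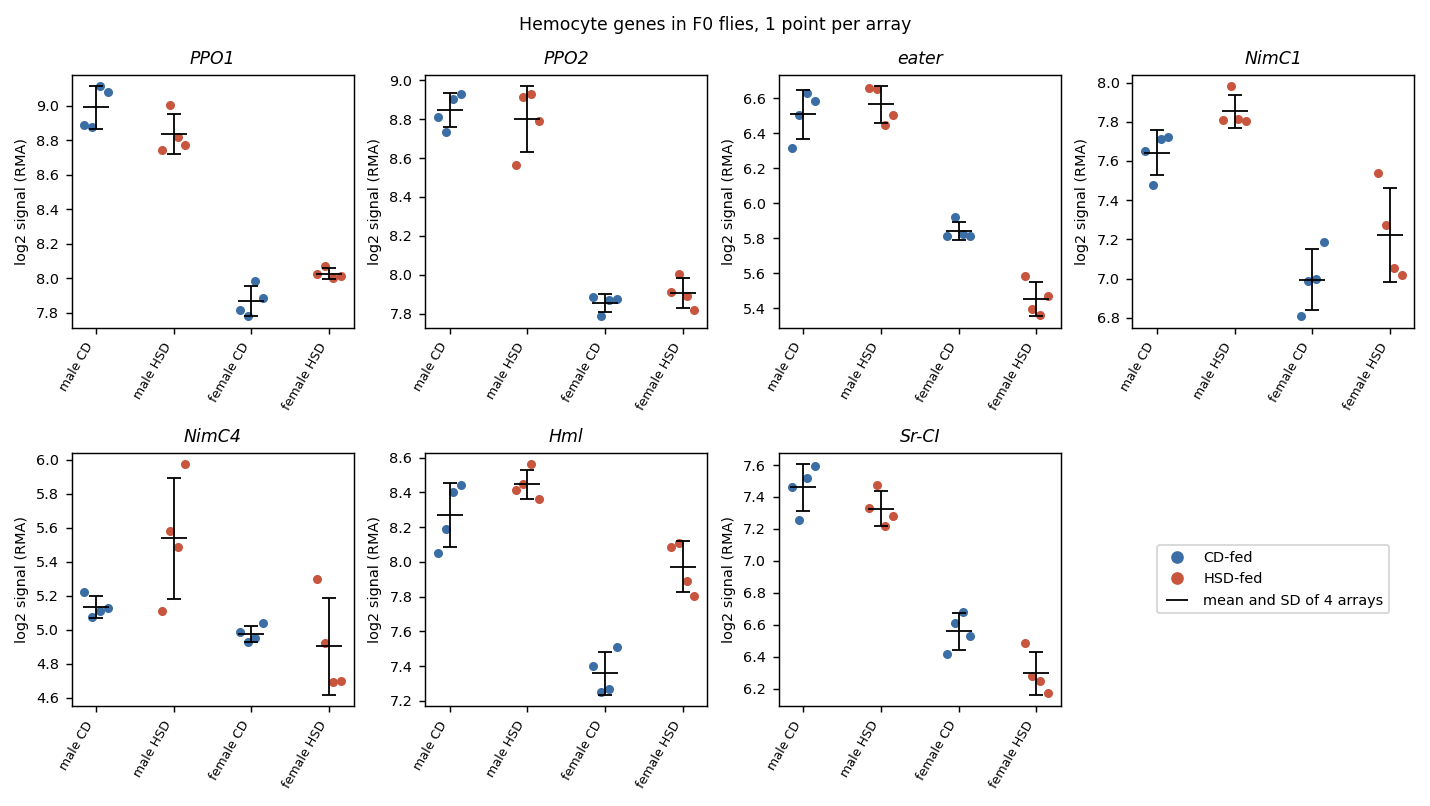
Log2 signal (y axis) of each gene in the 4 F0 groups (x axis), 1 point per array, with the mean and SD of 4 arrays. In females the HSD arrays lie above the CD arrays for Hml and below them for eater; levels of the sexes come from separately normalized sets and are not compared.

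Genes around these receptors changed in F0 as well. Of 8 surface and matrix genes 4 rose in males, with the integrin ligand Tig (0.81), Ppn (0.36) and vkg (0.32) among them, and in females 4 rose, with the matrix peroxidase gene Pxn (0.43) and Tig (0.38), while the glutactin gene Glt fell (-0.88). Of 13 other Nimrod and scavenger receptors 5 fell in females, among them NimB1 (-0.58), NimB2 (-0.54) and the engulfment receptor drpr (-0.33), against 1 that rose. The GATA factor srp (-0.52) and its partner ush (-0.42) also fell in females. Of the melanization proteases and serpins 3 rose and 3 fell there, including the proteases Sp7 (0.30) and Hayan (-0.55) and the serpin Spn27A (-0.19), an inhibitor of the melanization cascade. PPO3, the prophenoloxidase of lamellocytes, rose by 0.34. These counts stand in comparisons where 41.3% of all genes passed in females and 30.5% in males, and are read against those shares. Muscle and fat body genes moved in the same females, Act88F by 1.66 and Lsp2 by -3.44, and their part in these values was not tested.

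Between F1 and F2 flies on different food the levels of 6 of the 7 genes differed far more than in F0. For a common scale the 80 arrays were quantile normalized together. On it PPO1, PPO2, eater, NimC1, NimC4 and Sr-CI were higher in HSD-fed than in CD-fed flies in 8 of 8 contrasts of the same generation, sex and ancestry, with all 4 HSD-fed arrays above all 4 CD-fed ones. Among all genes 8.07% showed this in each of the 8 contrasts. Hml did not share this: it was fully higher in 2 contrasts and fully lower in 4. Each of these contrasts joins 2 labelled batches that hold 1 own diet each, so diet and batch cannot be told apart, and no test was made.

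The sizes were large. The median difference over the 8 contrasts was 2.37 for eater, 2.24 for NimC4, 2.22 for PPO1, 2.01 for PPO2, 1.86 for NimC1 and 1.52 for Sr-CI, against -0.27 for Hml. In F1 males of CD ancestry PPO1 differed by 4.29 on the common scale, and on the deposited scale it read 7.06, 6.95, 7.35 and 7.39 in CD-fed flies against 11.49, 11.37, 11.54 and 11.70 in HSD-fed flies. In F2 females of HSD ancestry it differed by 1.01 on the common scale. A difference of more than 1 log2 unit upwards was shown by 6 of the 7 genes in both F1 male contrasts (5.46% of all genes with CD ancestry and 4.42% with HSD ancestry) and both F2 male contrasts (3.4% and 2.86%). In F1 females it was shown by 6 genes with CD ancestry (3.78% of all genes) and 5 with HSD ancestry (4.16%), and in F2 females by 4 (3.53%) and 3 (3.62%). In F0, where both diets share a batch, none of the 7 genes differed by more than 0.62 between diets.

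Muscle markers were also higher on HSD in these contrasts. In each, 3 or 4 of the 4 muscle markers were over 1 log2 unit higher, at list medians of 1.19 to 1.85, while fat body markers had list medians of -0.42 to 0.17. The surface and matrix genes had list medians of at least 0.96 in males and of -0.12 to 0.40 in females. Markers of other tissues moved in some contrasts. The 6 ovary and yolk markers had a median of 2.26 in F2 males of HSD ancestry, with 5 over 1 log2 unit higher, and the group of HSD-fed flies there holds the 3 arrays with female transcripts. Their median was 1.03 in F1 males and 0.81 in F2 males of CD ancestry, with 3 over 1 unit in each. The 5 testis and accessory gland markers had a median of 1.14 in F1 females of HSD ancestry, with 4 over 1 unit, and of 0.61 to 0.78 in the other female contrasts. The 4 nephrocyte and heart markers stood at 0.92 and 0.83 in F1 males and below 0 in the other 6 contrasts. The part of other tissues or of the batches in the levels of the hemocyte genes was not tested.

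The order of the 20 groups was alike for most of the genes. For PPO2, eater, NimC1, NimC4 and Sr-CI the 8 HSD-fed F1 and F2 groups held the first 8 places on the common scale, and for PPO1 F0 CD-fed males stood among them at place 8. HSD-fed males of CD ancestry in F1 were the highest group for PPO1 (11.09 ± 0.12, SD), eater (9.04 ± 0.19), NimC1 (9.70 ± 0.14), NimC4 (8.88 ± 0.40) and Sr-CI (9.31 ± 0.08). CD-fed F1 groups were the lowest for PPO1, PPO2, eater, NimC1 and Sr-CI, and F0 CD-fed males for NimC4 (5.03 ± 0.04). Hml ran over a narrower span, from 8.70 ± 0.10 in F0 HSD-fed males to 7.06 ± 0.08 in F1 HSD-fed females of HSD ancestry.

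Most neighbours in these orders were not apart. Of the 19 pairs of neighbouring groups the array ranges overlapped in 15 for PPO1, 14 for PPO2, 14 for eater, 12 for NimC1, 15 for NimC4, 17 for Hml and 15 for Sr-CI. The widest step between neighbours was 0.91 for eater and 0.63 for NimC4, in both cases between HSD-fed and CD-fed descendants. For PPO1 it was 1.07, between F0 CD-fed females and the CD-fed F1 groups.

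**Figure D5:**
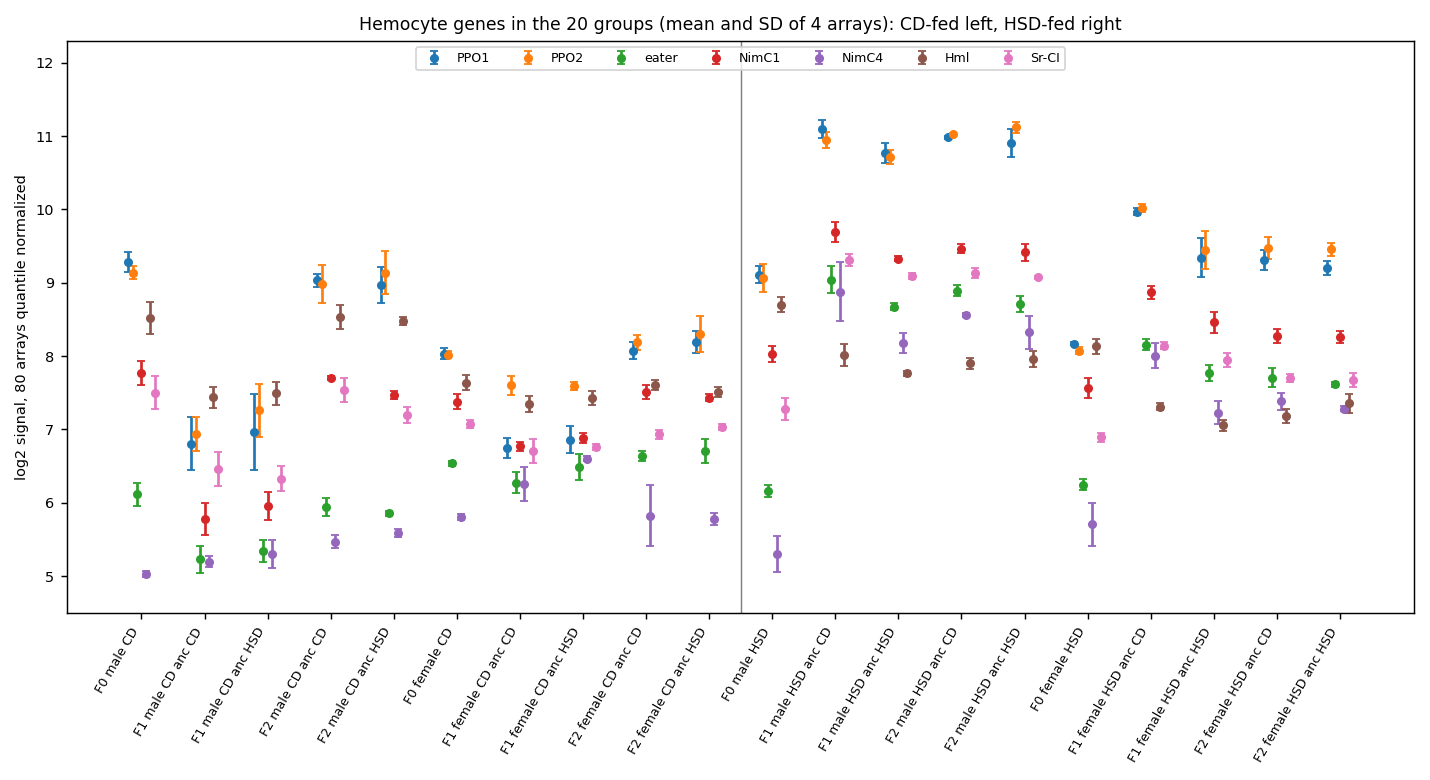
Mean and SD of 4 arrays per group (x axis; anc is the diet of the F0 males) for each gene, as log2 signal after quantile normalization of all 80 arrays (y axis), with CD-fed groups on the left and HSD-fed groups on the right. HSD-fed F1 and F2 groups lie above the CD-fed F1 and F2 groups for 6 genes and not for Hml; heights of different genes are not comparable.

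Within the sets the 7 genes varied together to different degrees. After each array's value was centred on its set, Pearson's r over 80 arrays ran from 0.06 for Hml and Sr-CI to 0.75 for PPO1 and PPO2, with a median of 0.52 over the 21 pairs. Centred on the group, which removes diet and ancestry, the values ran from 0.13 for PPO1 and Hml to 0.70 for PPO1 and PPO2, with a median of 0.33. All genes on 1 array share its extract and its normalization, and these values are a description. NimC1 and NimC4 belong to 1 chromosomal cluster of Nimrod genes, with 9 protein-coding genes between them in the RefSeq annotation, NimC2 and NimC3 included, and their r within sets was 0.68.

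The genes most like the mean of eater, NimC1, NimC4, Hml and Sr-CI over the 80 set-centred arrays were Karl (r = 0.86), Had2 (0.83), CG4250 (0.82), mthl2 (0.81) and Ppn (0.77), by Pearson's r among 11568 genes. Those most like the mean of both prophenoloxidases were CG6034 (0.74), NtR (0.67), CG5418 (0.67), CG13026 (0.65) and Had2 (0.65). Karl encodes a lipocalin and Ppn papilin, a protein of the extracellular matrix. Had2 stood in both lists.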

How the data were processed

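The authors deposited 1 log2 value per probe set and array. The method was RMA, per the submitters' processing notes, which also name limma and give no versions. RMA subtracts background, normalizes arrays and summarizes probes, so its values compress low signals. Control probe sets (183) and those with several symbols (402) or none (4720) were left out of 18952, and the probe set with the highest mean served each gene. The arrays have no counts, and their number limits the precision.

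Each comparison was fitted with limma 3.58.1 in R 4.3.3 (lmFit, contrasts.fit, eBayes, two-sided) on the arrays of its groups. Genes whose mean lay under the 25th percentile of all probe set values in every compared group were left out, and p-values were adjusted over all genes tested by Benjamini-Hochberg, with 0.05 as the threshold. The 19 comparisons were diet in F0 by sex, ancestry in 8 sets, ancestry averaged over own diets, its difference between them, and the F0 sex difference. Own diet in F1 and F2 received no test. Arrays with transcripts of the other sex were those whose mean over sex-limited genes (5 log2 units apart between F0 CD-fed sexes) was over 0.5 above the lowest of their set.

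Alternatives were no dim filter, the 50th percentile, quantile normalization of the 80 arrays, array weights, the mean over a gene's probe sets, 1 fit of 80 arrays, a trended robust prior, a replicate block, those arrays left out, and each array left out. Replicate numbers in the titles did not pair the arrays throughout any set: in none of the 10 sets were all same-number correlations over 0.1. In F1 HSD-fed females they were 0.64 for replicate 1 and 0.35 for replicate 4, and 0.05 and -0.07 for replicates 2 and 3. Both replicate 1 arrays there had raised male transcripts, 0.38 (CD ancestry) and 0.73 (HSD ancestry) above the lowest array of the set. The part of these transcripts in the correlation was not tested. A pairing of some arrays there was not tested apart from the replicate block. No 2 arrays were identical. All 7 genes were named in each comparison, and of every other list up to 3 genes past the threshold with the smallest adjusted p. Likeness to the genes was ranked by Pearson's r, with the 5 highest named. The genes and lists were chosen with earlier results of these data known.

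The fits were tested on simulated data with 200 changed genes. In F1 HSD-fed females 96% of genes changed by 0.5 log2 units and 77% of those changed by 0.25 were recovered, with 11 false calls among 10402 genes. In F1 HSD-fed males the shares were 98% and 73%, with 14 false calls among 10926. The changed genes were drawn from those well above the dim cut and given independent noise. In the real data of these males no gene passed. The shares show that the fits work, and do not give the chance of a call in the real comparisons. Python 3.11.15, pandas 2.3.3, numpy 2.4.6 and matplotlib 3.10.9 served annotation and figures.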

Additional observations from a re-analysis of the deposited data

Results flagged for a closer look

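In all 7 values stood far from the other 3 arrays of their group by Dixon's test, out of 140 combinations of gene and group, where chance gives about 7. High values were eater in F0 CD-fed females, replicate 2 (5.92 against 5.81 to 5.82), NimC1 in F0 HSD-fed males, replicate 2 (7.98 against 7.81), and PPO2 in F1 CD-fed females of CD ancestry, replicate 4 (7.68 against 7.39 to 7.43). PPO1 was low in replicate 3 of F1 CD-fed females of HSD ancestry (6.27 against 6.70 to 6.78). PPO1 was also low in replicate 2 of F2 HSD-fed males of HSD ancestry (10.23 against 10.67 to 10.72), an array that held female transcripts. NimC4 was high in replicate 1 of F2 HSD-fed females of CD ancestry (7.32 against 6.95 to 6.98), and Hml in replicate 3 of F2 HSD-fed males of CD ancestry (7.66 against 7.52 to 7.53).

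Effects that differed between groups, each by a limma contrast of the difference, were the F0 diet change between the sexes and the F1 ancestry change between own diets. The female minus male diet change was 0.31 for PPO1, -0.45 for eater and 0.44 for Hml. The ancestry change in HSD-fed minus CD-fed F1 males was -0.45 for PPO2, -0.55 for NimC1 and -0.73 for NimC4. In F1 females it was -0.76 for PPO1, -0.54 for PPO2, -0.73 for eater, -0.63 for NimC1, -1.40 for NimC4 and -0.50 for Hml.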

How the results depend on the processing

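Numbers of the 7 genes past the threshold moved under some settings. With the replicate block the count was 0 in F0 males (1 in the report), 2 in F0 females (4) and 2 in F1 HSD-fed females (6). It was 1 for the own-diet difference in F1 males (3), 3 for that in F1 females (6) and 2 for the F1 female average (1). The labels do not say what arrays of the same number share. In F1 HSD-fed females replicates 1 and 4 were correlated across ancestries (r = 0.64 and 0.35). In F1 HSD-fed females NimC4 and Hml passed with the block, and eater had a limma adjusted p of 0.0510. The trended robust prior gave 2 in F0 males, 3 in F1 HSD-fed males, 1 in F1 CD-fed females and 2 in the F1 female average, array weights gave 2 in F0 males and 1 in F1 CD-fed females, and the 50th percentile filter gave 1 in F1 HSD-fed males, 1 in F1 CD-fed females and 2 in the F1 female average. One fit of all arrays gave 2 in F1 HSD-fed males and 1 for the F2 female own-diet difference, quantile normalization gave 1 in F2 CD-fed males, and leaving out arrays with transcripts of the other sex gave 0 in the F1 female average. The cause was not tested. Leaving out 1 array at a time gave 0 to 2 in F0 males, 2 to 5 in F0 females, 0 to 1 in F1 CD-fed females (1 without replicate 2 of CD ancestry), 3 to 7 in F1 HSD-fed females, 0 to 1 for the F1 male average (1 without replicate 2 of CD-fed males of CD ancestry), 0 to 4 for the F1 male own-diet difference, 0 to 2 for the F1 female average and 0 to 1 for the F2 male own-diet difference (1 without replicate 3 of HSD-fed males of HSD ancestry).

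Directions turned only for changes that had not passed; the cause was not tested. Without arrays holding transcripts of the other sex Sr-CI in F1 CD-fed males was 0.012, NimC1 and NimC4 in F2 HSD-fed males were 0.026 and 0.042, and PPO2 in the F1 male average was 0.031. With quantile normalization PPO2 in F1 CD-fed females was -0.0084, PPO2 in the F1 male average 0.044, and the F0 sex difference of NimC1 and Sr-CI -0.066 and 0.046. With array weights PPO2 in F1 CD-fed females was -0.020, PPO1 in F2 HSD-fed males 0.012, NimC4 in F2 CD-fed females 0.054 and the F0 sex difference of NimC1 -0.047. Leaving out 1 array gave eater -0.0065 to 0.097 and PPO2 -0.088 to 0.034 in F0 males, Hml -0.0071 to 0.089 and PPO1 -0.019 to 0.17 in F1 CD-fed males, PPO2 -0.0037 to 0.095 in F1 CD-fed females, and the F0 sex difference of NimC1 -0.091 to 0.082. In F2 it gave Hml -0.081 to 0.014, eater -0.084 to 0.040 and PPO1 -0.11 to 0.049 in CD-fed males, PPO1 -0.13 to 0.031 and NimC1 -0.083 to 0.0037 in HSD-fed males, eater -0.018 to 0.14, NimC4 -0.15 to 0.13 and PPO2 -0.0042 to 0.18 in CD-fed females, and PPO2 -0.089 to 0.012 in HSD-fed females.

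On the deposited scale the span from the highest to the lowest group was 5.11 for PPO1 (4.35 on the common scale), 3.56 for NimC1 (3.92), 4.32 for NimC4 (3.85), 1.78 for Hml (1.64) and 3.31 for Sr-CI (2.98). The median difference between own diets was 2.60 for PPO1, 2.25 for PPO2, 2.05 for eater, 1.99 for NimC4 and -0.092 for Hml. Spearman's correlation of CG13026 with the prophenoloxidases was 0.55. With 4 arrays per group, changes near 0.25 log2 units were recovered less often than those of 0.5 in simulated data. Outside the fits that left out 1 array, called changes of the 7 genes kept direction and side of the threshold in 179 cases over the alternatives and lost the call in 29, none with a turned sign. These cases include the dim filters and the mean over probe sets, which leave the signals of these genes unchanged and act only through the other genes. With 1 array left out the call was kept in 211 cases and lost in 85.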

Other observations

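Averaged over both own diets, F2 females of HSD ancestry showed changes in hemocyte-related genes outside the 7, in a comparison where 9.72% of all genes passed. The scavenger receptor gene crq rose by 0.20 (limma adjusted p = 0.0229) and the lamellocyte gene atilla by 0.14 (limma adjusted p = 0.0448). PPO3 fell by 0.20 on the log2 scale (limma adjusted p = 0.0401). Of the 8 melanization proteases and serpins Sp7 fell (-0.18, limma adjusted p = 0.00672) and grass rose (0.19, limma adjusted p = 0.0466). Of the 4 muscle markers 3 fell in the same females, Act88F by 0.61 on the log2 scale.

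In F1 females averaged over own diets the protease gene spirit (0.16), the serpin gene Spn77Ba (0.15) and the clotting gene fon (0.13) rose, and NimB5 (-0.15) and Pvf2 (-0.33) fell, where 7.33% of all genes passed. Without the array holding male transcripts spirit (0.17) and Pvf2 (-0.33) still passed, and Spn77Ba (0.15, limma adjusted p = 0.0647), fon (0.13, limma adjusted p = 0.0705) and NimB5 (-0.13, limma adjusted p = 0.0540) did not. The 10 blood cell transcription factors and growth signals had a list median of -0.14 in F1 HSD-fed males, where limma passed no gene at all. In F1 males averaged over own diets 3 of 10 fell.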
